A study of Macaca mulatta with 2 samples.

Results

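Blood vascular endothelial cells of the trabecular meshwork were described in 2 single-cell RNA libraries of rhesus macaque tissue, 1 labelled glaucoma and 1 labelled normal. The study's design text describes the glaucoma group as monkeys with spontaneous primary open-angle glaucoma and the normal group as healthy controls. No treatment, transgene or age is given for either group, and the labels do not say how many animals or eyes each library holds. The tissue was digested with collagenase and loaded on a 10x Genomics 3′ chip; no cell sort is described. A barcode was kept as a cell if at least 500 genes were detected and under 20% of its unique molecular identifiers (UMIs, the counted RNA molecules) were mitochondrial. A kept cell was a member if at least 3 of 7 endothelial genes (PECAM1, CDH5, VWF, EMCN, PLVAP, FLT1, EGFL7) had a UMI and fewer than 2 of 5 lymphatic-type genes (CCL21, MMRN1, PROX1, DNASE1L3, RELN) had one. This gave 792 members of 8633 kept cells in the glaucoma library and 309 of 5430 in the normal library, or 1101 of 14063 in all. Membership was chosen by measured values, so the levels of members beside other cells are a description without a test.

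Blood vascular endothelium lines arteries, capillaries and veins, and it controls vessel tone, the passage of solutes and cells, and clotting. In the outflow tissue of the eye it lies close to a second endothelium, the lining of Schlemm's canal, which collects the aqueous humour and carries lymphatic features. Vessels of the anterior segment differ in how tight they are: those of the iris form a blood-aqueous barrier, while others have fenestrations spanned by the protein PLVAP.

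The deposited counts held 38765808 UMIs over 10624 barcodes in the glaucoma library and 25042621 UMIs over 7028 barcodes in the normal library. Members had 2613719 UMIs in all in the glaucoma library, with a median of 2554 UMIs and 1310 genes per cell, against 937070 UMIs, 1972 UMIs and 1107 genes in the normal library. Mitochondrial UMIs took a median of 4.02% of a member's UMIs in glaucoma and 2.85% in normal. Scrublet, a doublet caller, marked 72 of the 792 glaucoma members (9.09%) and 2 of the 309 normal members (0.647%). The libraries shared 17 barcodes, of which 1 was a glaucoma member and none a normal member. With 1 library per group, no difference between glaucoma and normal could be tested, and every interval below is a 95% interval that covers counting error only.

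The 7 endothelial genes contributed unequally. EGFL7, a secreted regulator of vessel tube formation, had a UMI in 99.6% of glaucoma members and 96.8% of normal members. PECAM1, a junctional adhesion molecule, was detected in 88.4% and 81.2%, CDH5, the endothelial cadherin, in 77.7% and 76.4%, and VWF, the clotting adhesion factor, in 73.4% and 67.0%, glaucoma first in each pair. FLT1, a decoy receptor for VEGF, followed at 61.4% of glaucoma and 68.3% of normal members, and EMCN, a sialomucin of capillaries and veins, at 32.8% and 36.6%. PLVAP was the least often detected, in 9.34% of glaucoma members and 5.83% of normal members. Counts per cell were spread from 3 to 7 genes. Exactly 3 genes were found in 199 glaucoma members and 89 normal members, and all 7 in 21 and 4. Just outside the threshold, with 2 of the 7 genes, lay 329 kept cells of the glaucoma library and 233 of the normal library.

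Beside the rule genes, the label was set against a list of further endothelial genes; since the rule chose cells by genes of the same kind, these counts are a description. Of those with at least 20 UMIs in members, 16 of 18 were at least 2-fold above all other kept cells in glaucoma and 13 of 14 in normal. Across all features with as many UMIs, 9.35% of 8003 were so in glaucoma and 10.7% of 5892 in normal; since members were chosen on this contrast, nothing is read from these shares. The lymphatic-type genes were kept low by the rule itself, and their levels check nothing. PROX1, the transcription factor that specifies lymphatic fate, had 0 UMIs in members of both libraries, which allows at most 3 counts in each sum. RELN had 0 UMIs in glaucoma members and 1 in normal members. CCL21, a lymphatic chemokine, was found in 9.97% of glaucoma members, at 348 CPM, and in 2.59% of normal members, at 47.0 CPM. CPM is the number of UMIs of a gene per 1000000 UMIs of the set of cells. In glaucoma lymphatic-type cells, defined as kept cells with 2 or more of the 5 genes, CCL21 reached 8191 CPM. Exactly 1 of the 5 lymphatic-type genes was detected in 125 glaucoma members (15.8%) and in 19 normal members (6.15%). Glaucoma lymphatic-type cells numbered 537 and normal ones 31; the part of their RNA in the members was not tested.

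The leading gene of the members was RNASE1, a secreted ribonuclease of endothelium. Members of the glaucoma library held 9622 RNASE1 CPM against 102 in the other kept cells of that library, and normal members held 7787 against 46.1. NOS3, the endothelial nitric oxide synthase that relaxes vessel walls, stood at 274 against 5.54 CPM in glaucoma and at 272 against 3.04 in normal. PLAT, tissue plasminogen activator, reached 2478 CPM in glaucoma members and 1832 in normal members, against 94.4 and 58.6 in other cells of the same libraries. Among those other cells, the lymphatic-type cells held 694 PLAT CPM in glaucoma and 899 in normal. MECOM, a transcription factor of arterial and blood-forming lineages, was at 335 against 3.82 CPM in glaucoma and at 306 against 1.90 in normal. ESAM, a junctional adhesion molecule, closed the list of 20 leading genes at 998 against 65.3 CPM in glaucoma and 863 against 53.8 in normal. Further leading genes were FMO2, SRARP, TMEM88, SPOCK2, LRRC32, FAM167B, ACER2, LPCAT2, ADGRF5, CLEC3B and FAM124B, and each of them was above the other kept cells in both libraries. Of the 20 leading genes, CLEC3B and ADGRF5 lay closest by ratio to the lymphatic-type cells. CLEC3B was at 2424 CPM in glaucoma members against 1374 there, and at 1289 against 981 in normal. ADGRF5 was at 810 against 425 in glaucoma and at 714 against 459 in normal.

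**Figure D1:**
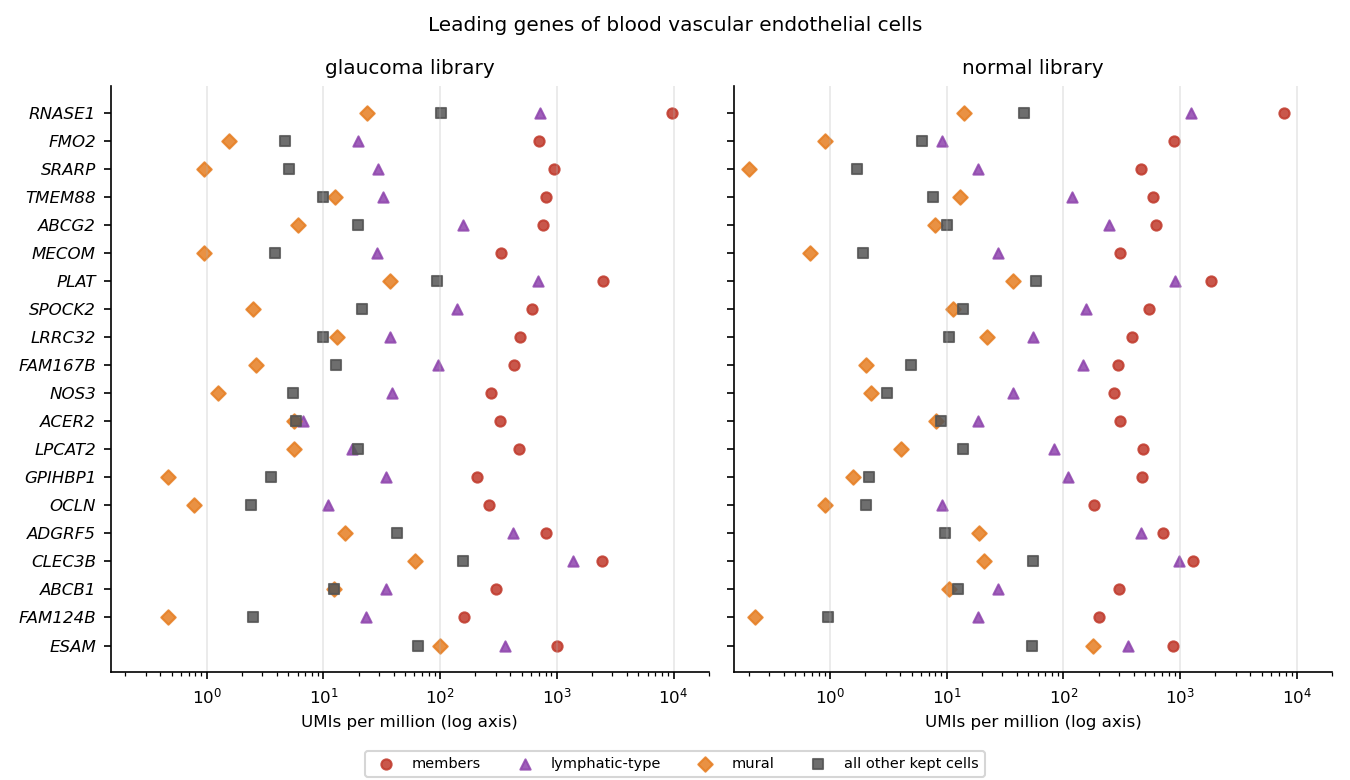
Level of the 20 leading genes in CPM (log axis) in members, lymphatic-type cells, mural cells and all other kept cells, for the glaucoma library (left) and the normal library (right); each symbol is 1 sum over cells of 1 library, and a level of 0 is drawn at the left edge. Members lie to the right of every other set for each gene, with RNASE1 at 9622 CPM in glaucoma and 7787 in normal.

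Of the list of junction and barrier genes, 14 of 16 with at least 20 UMIs in members were at least 2-fold above the other kept cells in glaucoma and 12 of 15 in normal. Of the list of capillary and fatty acid uptake genes, 2 of 6 were so in glaucoma and 3 of 6 in normal. Over all features with as many UMIs, 9.35% of 8003 were so in glaucoma and 10.7% of 5892 in normal. Members were chosen on this contrast, so nothing is read from these counts. SLC2A1, the glucose carrier GLUT1 of barrier vessels, reached 3182 CPM in glaucoma members and 2753 in normal members, against 150 and 193 in lymphatic-type cells of the same libraries. ABCG2 and ABCB1, drug efflux pumps of the blood-brain and blood-retina barriers, were at 766 and 300 CPM in glaucoma members, and at 625 and 298 in normal members. The other kept cells held 19.9 and 12.3 CPM of these genes in glaucoma and 10.0 and 12.5 in normal. Lymphatic-type cells held 156 and 34.6 CPM of the same genes in glaucoma and 248 and 27.5 in normal. OCLN, the tight-junction protein occludin, was at 263 CPM in glaucoma members against 2.37 in other cells, and at 182 in normal members against 2.05. GPIHBP1, which anchors lipoprotein lipase on capillary endothelium, was at 207 CPM in glaucoma members against 3.58 in other cells, and at 473 in normal members against 2.14. Some genes known from barrier or capillary endothelium were nearly or wholly undetected. CLDN5, a claudin of tight junctions, had 53 UMIs over all glaucoma members and 8 over all normal members. MFSD2A, a lipid transporter, and CA4, a carbonic anhydrase of capillaries, had 0 UMIs in members of either library, as had BTNL9, the tip-cell gene ESM1 and the venous receptor APLNR.

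Set against the lymphatic-type cells, the genes that stood highest in members were FMO2, CXCL12, SRARP, SLC2A1, CYP26B1, ACER2, OCLN, MECOM, ASNS and PROM1. CXCL12, a chemokine of arterial and perivascular niches, was at 424 CPM in glaucoma members against 12.5 in lymphatic-type cells. In the normal library it was at 311 in members, while its sum over the 31 lymphatic-type cells was 0. CYP26B1, which degrades retinoic acid, was at 356 CPM in glaucoma members against 19.6 in lymphatic-type cells, and at 241 against 9.17 in normal.

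Members made up a larger share of the glaucoma library. They were 9.17% of its kept cells (Clopper-Pearson interval 8.57 to 9.80), against 5.69% in normal (5.09 to 6.34), a log2 ratio of 0.69 (0.50 to 0.88). The ratio was 0.38 with at least 2 markers asked for, and 1.01 with at least 1000 genes per cell or with every cell thinned to 1000 UMIs. Mural cells, the pericytes and smooth muscle around vessels, were 15.96% of kept cells in glaucoma and 15.6% in normal, with a log2 ratio of 0.03 (-0.09 to 0.15). Of endothelial cells of either kind, members were 59.6% in glaucoma (56.9 to 62.3) and 90.9% in normal (87.3 to 93.7), beside the 537 and 31 lymphatic-type cells. With 1 library per group, a difference between the groups and a difference between these 2 libraries cannot be told apart.

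Many members also held RNA of other cell types. At least 2 markers of 1 other type were found in 369 glaucoma members (46.6%) and in 113 normal members (36.6%). Mural markers were the most frequent, in 242 glaucoma and 72 normal members, followed by fibroblast markers in 151 and 64 and meshwork markers in 108 and 28. The level of fibroblast and meshwork markers was highest in members with exactly 3 of the 7 endothelial genes. Their 10 meshwork markers summed to 10843 CPM in glaucoma and 16862 in normal, and their 10 fibroblast markers to 1759 and 4294. In members with at least 4 genes, the meshwork sum was 1527 in glaucoma and 1419 in normal, and the fibroblast sum 737 and 793. The exactly-3 members held 564079 of the 2613719 member UMIs in glaucoma and 367047 of the 937070 in normal. Their further endothelial genes summed to 2689 CPM in glaucoma and 1409 in normal, against 4441 and 4475 in members with at least 4 genes. Members with at least 2 markers of 1 other type were then left out, and 423 glaucoma and 196 normal members remained. The lists used for this were mural, fibroblast, meshwork, macrophage, T or NK, Schwann and melanocyte markers. The remaining cells are called members without RNA of other types for short, although they still held some. In the remaining cells, the fibroblast sum was 161 CPM in glaucoma and 227 in normal, and the meshwork sum 220 and 183. The same markers were used to leave cells out, so these low sums follow from the choice. Lymphatic and canal markers, not used for it, summed to 519 CPM in glaucoma and 271 in normal there, and erythroid markers to 1560 and 224. Calls between the libraries were therefore also read in both narrower sets, those with at least 4 genes and those without RNA of other types. Results of gene lists are for all members unless a narrower set is named.

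**Figure D2:**
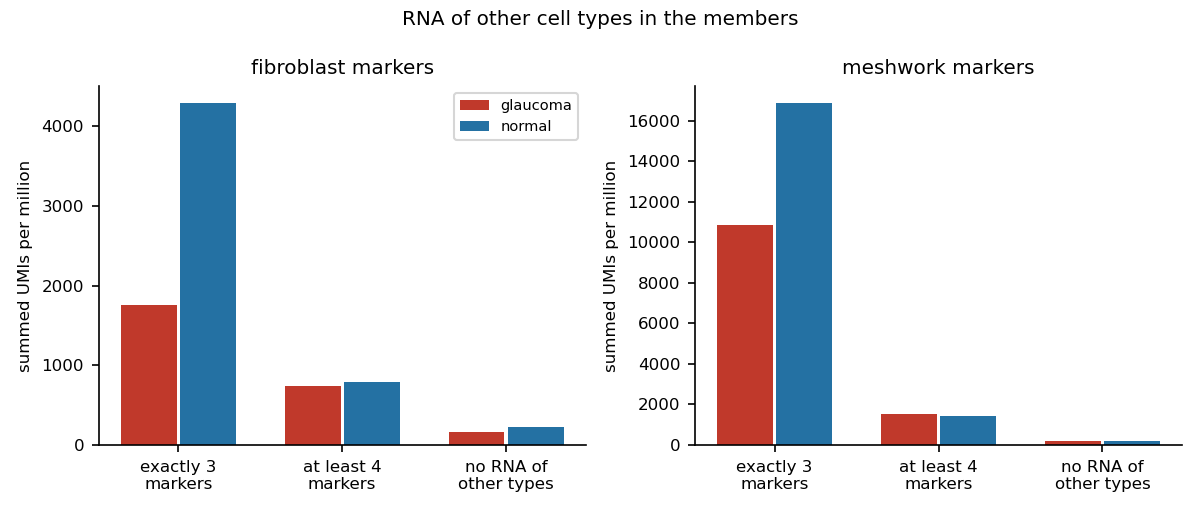
Summed CPM of the fibroblast markers (left) and the meshwork markers (right) in members with exactly 3 of the 7 endothelial genes, with at least 4, and without RNA of other types; bars are 1 library each, glaucoma beside normal. The exactly-3 members stand highest, at 1759 and 4294 CPM for fibroblast and at 10843 and 16862 for meshwork markers. With at least 4 the sums are 737 and 793 for fibroblast and 1527 and 1419 for meshwork markers. The third set leaves out cells by these same markers, so its low sums follow from the choice.

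A minority of members carried GJA5, the gap-junction protein connexin 40 of arterial endothelium. A GJA5 UMI was found in 46 of 792 glaucoma members, or 5.81% (4.28 to 7.67), and in 43 of 309 normal members, or 13.9% (10.3 to 18.3). The log2 ratio was -1.26 (-1.89 to -0.63). With each cell thinned to 1000 UMIs, the shares were 2.96% in glaucoma and 6.00% in normal, and the interval of the log2 ratio of -1.02 then included 0 (-2.03 to 0.03). In members without RNA of other types the shares were 6.15% and 15.3%, with a log2 ratio of -1.32. Thinning left 744 of the 792 glaucoma members and 250 of the 309 normal members. In the other kept cells, whose median depth was 2852 UMIs in glaucoma and 2788 in normal, a GJA5 UMI was found in 0.408% and 0.820%. The median depth of GJA5-positive members was 2550 UMIs in glaucoma and 1520 in normal, against 2554 and 2041 in the other members. ACKR1, a chemokine receptor of venules, was found in only 1 glaucoma and 3 normal members, too few to describe a venous class by it. SELP, the selectin P of venous endothelium, was detected more often, in 17.6% of glaucoma and 16.2% of normal members.

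The genes named next stood highest in GJA5-positive members of both libraries among genes with at least 20 UMIs in those cells of each library, so their levels are a description; ratios had 10 CPM added to both sides. PCSK5, a proprotein convertase, was at 218 CPM in GJA5-positive glaucoma members against 22.8 in the others, and at 543 against 46.2 in normal. BMX, a kinase of arterial endothelium, was at 181 against 24.5 CPM in glaucoma and at 337 against 16.6 in normal. IGFBP3, a binding protein for insulin-like growth factors, reached 2254 CPM in GJA5-positive glaucoma members against 182 in the others, and 1445 against 214 in normal. FBLN5, an elastic fibre protein, was at 486 against 73.0 CPM in glaucoma and 652 against 150 in normal, and VEGFC, a growth factor for lymphatic vessels, at 473 against 158 and 456 against 111. SPP1, TP53I11, ATP2A3, PLXDC1, ASNS, HES4 and GATA2 were further genes of the 15 highest under that limit. DES, ACTA2 and CNN1, filament and contractile genes of smooth muscle, were among these 15 as well. The mural markers summed to 2341 CPM in GJA5-positive and 964 in other glaucoma members, and to 2911 and 1108 in the normal library. DES had a UMI in 30.4% of GJA5-positive glaucoma members but in only 6.98% of those of the normal library, where its level was 554 CPM. The part of mural RNA in these levels was not tested.

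**Figure D3:**
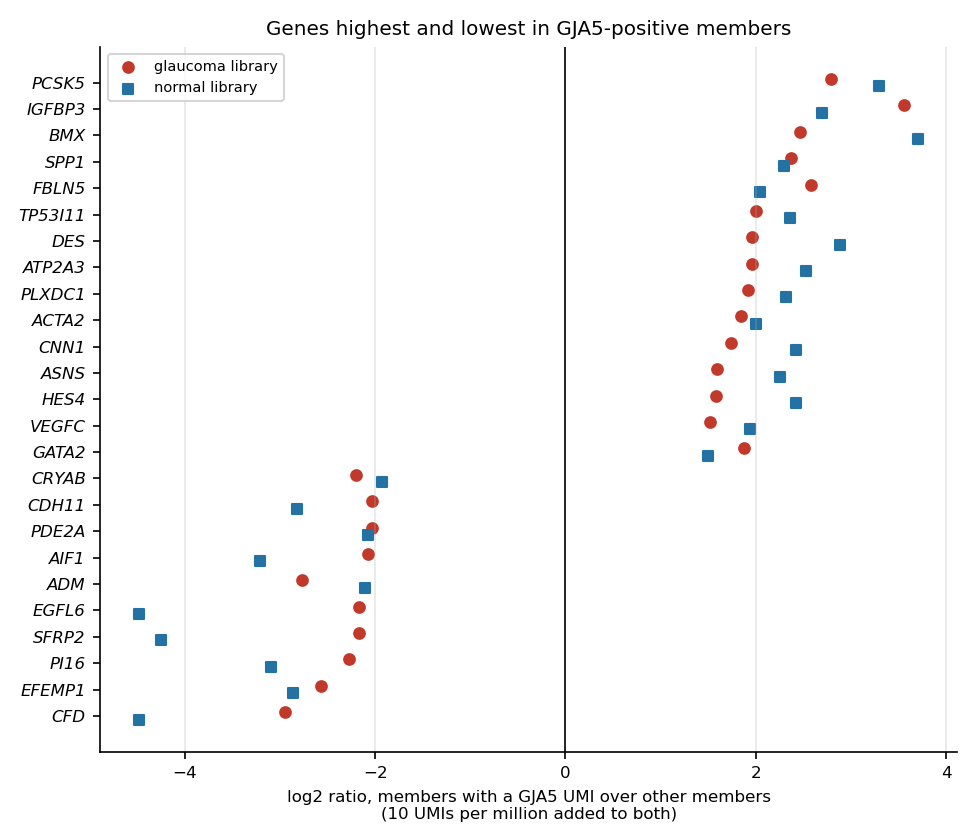
Log2 ratio of CPM, GJA5-positive over other members, with 10 CPM added to both sides, for the 15 highest genes (top, with at least 20 UMIs in the GJA5-positive cells of each library) and the 10 lowest (bottom, with at least 50 UMIs in the other members of each library); circles are the glaucoma library and squares the normal library. All 15 lie above 0 and all 10 below 0 in both libraries, as the choice of genes fixes, and IGFBP3 reaches 3.56 in glaucoma and BMX 3.71 in normal.

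The list of arterial genes does not hold GJA5, and its median log2 ratio was 0.75 over 17 genes in glaucoma and 1.42 over 15 genes in normal, against -0.06 and 0.02 over all features with at least 20 UMIs in members. At least 2-fold above the other members were 7 of the 17 genes in glaucoma and 10 of the 15 in normal, against 2.37% of 8002 features and 6.18% of 5891. HEY2, a Notch target that specifies arteries, had a log2 ratio of 2.85 in glaucoma and 1.85 in normal, HEY1 2.50 and 1.59, and GJA4, a second arterial connexin, 1.12 and 2.16. HEY2 and HEY1 were not in the ranking above, with 13 and 12 UMIs in GJA5-positive normal members. DLL4, the Notch ligand of arteries and tip cells, stood at 0.15 in glaucoma and at 1.01 in normal. CXCL12 ran the other way, at -1.19 in glaucoma and -0.15 in normal, and NEBL at -1.23 and -1.75. The list of capillary genes had medians of -0.65 over 6 genes in glaucoma and -0.82 over 6 in normal. Within it, GPIHBP1 was at 106 CPM in GJA5-positive glaucoma members against 214 in the others, and at 119 against 511 in normal. TMEM100 of the same list ran the other way, with log2 ratios of 1.34 in glaucoma and 2.63 in normal, the highest of the list in both. PLVAP was also low, at 6.23 against 39.5 CPM in glaucoma and 10.9 against 43.8 in normal. The barrier gene SLC2A1 was at 2808 against 3206 CPM in glaucoma and at 2987 against 2728 in normal. Among genes with at least 50 UMIs in the other members of each library, the 10 lowest in GJA5-positive members were CFD, EFEMP1, PI16, SFRP2, EGFL6, AIF1, CDH11, CRYAB, ADM, the vasodilator adrenomedullin, and PDE2A, a cyclic nucleotide phosphodiesterase. ADM was at 12.5 CPM in GJA5-positive glaucoma members against 143 in the others, and at 21.7 against 127 in normal. Markers of other cell types differed between the same sets of cells. The meshwork markers summed to 4103 CPM in GJA5-positive and 3500 in other glaucoma members, and to 282 and 8251 in the normal library. The fibroblast markers summed to 704 and 974 in glaucoma and to 337 and 2363 in normal. Their part in the lowest genes was not tested.

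Between the libraries, 4941 features with at least 100 UMIs over both sets of members were compared, the 12 rule genes left out. A feature was called if the ratio of CPM was at least 2-fold and its counting interval excluded equality. By that rule 104 features (2.10%) were called higher in glaucoma and 183 (3.70%) lower, and the median log2 ratio was -0.03. Calls were then read in the narrower sets. Of the 183 lower calls, 96 had enough UMIs in members with at least 4 genes, and 44 of these kept the call. Among members without RNA of other types 27 had enough UMIs, and 16 kept it. Of the 104 higher calls, 54 of 82 kept the call with at least 4 genes, and 28 of 41 without RNA of other types. In those narrower sets the same rule called 2.24% of 4115 features higher and 2.24% lower with at least 4 genes, and 2.36% of 2453 higher and 2.12% lower without RNA of other types. FBLN1, OLFML3 and SDC2, matrix and surface genes of fibroblasts, were called lower at -1.92, -1.89 and -1.79. With at least 4 genes they stood at -0.06, -0.05 and -0.12. CPXM2 and NECAB1 were called lower at -2.11 and -2.03, and again with at least 4 genes, at -1.11 and -1.27. CCDC80, TGFBI, CRISPLD2, CHPF and SSPN were called lower at -2.22 to -1.91 in all members, and members with at least 4 genes held too few of their UMIs to compare. The part of fibroblast and meshwork RNA in these calls was not tested. IGKC, an immunoglobulin light chain, SLC27A5, POLR2J and MGARP were called higher, at 2.67, 2.28, 2.22 and 1.90, but at least 1 of the narrower sets held too few UMIs of each.

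Called the same way in all members and in both narrower sets were 24 features higher and 12 lower, of which 22 and 11 carry a gene symbol. This joint set was chosen after the values were seen. The other kept cells of the libraries include the 537 and 31 lymphatic-type cells, which share endothelial genes with members, so between-library ratios of other cells are given without them. That choice too was made after the values were seen. In the remaining 7304 glaucoma and 5090 normal cells, 23 of the 24 had enough UMIs and 14 were also called higher, and 11 of the 12 had enough and 7 were also called lower. With the lymphatic-type cells included, these counts were 16 of 24 and 7 of 12. Over 10940 features compared in the cells without them, the median log2 ratio was -0.17. The share of all features called there is not given, so nothing is read from these counts.

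RAMP2, which pairs with the receptor CALCRL to bind adrenomedullin, was at 538 CPM in glaucoma members and 143 in normal members, a log2 ratio of 1.91 (1.65 to 2.18). It was detected in 72.3% of glaucoma and 31.4% of normal members, and its ratio was 1.65 with at least 4 genes and 1.71 without RNA of other types. RAMP1, which turns the same receptor toward calcitonin gene-related peptide, was at 155 CPM in glaucoma members and 42.7 in normal members, a log2 ratio of 1.86 (1.39 to 2.37). Over the other cells the ratio was 0.55 for RAMP2 and 1.09 for RAMP1, and with lymphatic-type cells included it was 1.67 and 0.99. Within lymphatic-type cells alone RAMP2 stood at 1.83 (1.31 to 2.42), and RAMP1 had too few UMIs there to compare. CALCRL itself was at 258 CPM in glaucoma and 173 in normal, with a log2 ratio of 0.58 (0.33 to 0.83) that stayed under 2-fold. ADORA2A, an adenosine receptor that dilates vessels, was called higher at 271 CPM in glaucoma against 105 in normal, with a log2 ratio of 1.38 in members and 0.57 in the other cells. With the same weight for every cell, in place of the same weight for every UMI, ADORA2A stood at 0.95, under 2-fold.

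UBD, a ubiquitin-like modifier induced by inflammatory cytokines, was at 159 CPM in glaucoma members and 28.8 in normal members, a log2 ratio of 2.47 (1.90 to 3.08), against 0.19 in the other cells. The class II genes HLA-DQA1 and MAMU-DPB were called higher at 1.62 and 1.99 in members, and stood at 2.23 and 2.88 in the other cells. Where a class II gene has close copies, its counts may be split between features. FCN3, a soluble recognition protein of the lectin pathway of complement, was at 331 CPM in glaucoma and 129 in normal, a log2 ratio of 1.36 (1.08 to 1.64). The other cells held too few FCN3 UMIs to compare, 70 in glaucoma and 21 in normal (1.39, 0.67 to 2.16), and the same weight for every cell put FCN3 at 0.87 in members. LTC4S, which makes leukotriene C4, and GCNT1, which builds the glycans that selectins bind, were called higher at 1.47 and 1.91, with 1.59 and 0.23 in the other cells.

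MT1JP and MT1E, features of the metallothionein family of metal-binding proteins, stood at 3.79 and 1.76, and reads of this family may be split between close copies. MT1JP was detected in 15.2% of glaucoma and 1.94% of normal members. CP, the copper protein ceruloplasmin, was at 177 CPM in glaucoma and 63.0 in normal. ANKRD37, a target of hypoxia-inducible factors, reached 752 CPM in glaucoma and 233 in normal, a log2 ratio of 1.69 (1.49 to 1.90), with 1.42 in the other cells. GAPDH, a glycolytic enzyme, was at 505 and 212 CPM. IGFBP7, a secreted protein of the vessel wall, had a log2 ratio of 1.48 in members and 1.64 in the other cells. PHPT1, TEX264, LAMTOR1, SMIM3, MARCH2 and PFDN5 completed the set of higher genes, with log2 ratios of 1.01 to 1.70 in members. HBB, beta-globin, was called higher at 4.78, but 34.9% of its glaucoma UMIs lay in a single barcode.

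Among the lower genes, GPIHBP1 was at 207 CPM in glaucoma members and 473 in normal members, a log2 ratio of -1.19 (-1.38 to -1.01). It fell by 1.51 with at least 4 genes and by 1.44 without RNA of other types. The other cells held only 21 GPIHBP1 UMIs in glaucoma and 33 in normal, under the minimum, or 0.787 against 1.58 CPM. The interval of that log2 ratio was -1.87 to -0.17, in the same direction as in members. With lymphatic-type cells included, the log2 ratio over the other cells was 0.74. FBLN5 was at 98.3 CPM in glaucoma and 200 in normal, a log2 ratio of -1.02 (-1.30 to -0.74), with 0.15 in the other cells. NFKBIZ, a nuclear regulator of NF-kB, was at 94.5 CPM in glaucoma against 263 in normal (-1.47), and PTGS2, the inducible cyclooxygenase, at 64.3 against 134 (-1.06). The other cells gave -1.12 for NFKBIZ and -0.73 for PTGS2. DNAJB1, a heat-shock co-chaperone, was at 213 CPM in glaucoma and 733 in normal, a log2 ratio of -1.79 in members and -1.64 in the other cells. CCNL1, DOCK9, AKAP9 and GOLGB1 were lower at -1.31, -1.21, -1.13 and -1.04, and EMP1, a membrane protein, was at 164 CPM in glaucoma and 329 in normal. For RPS2, a ribosomal protein gene, 1 of its 2 features was lower at -7.16 and the other stood at 0.61, so the gene's level is uncertain.

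**Figure D4:**
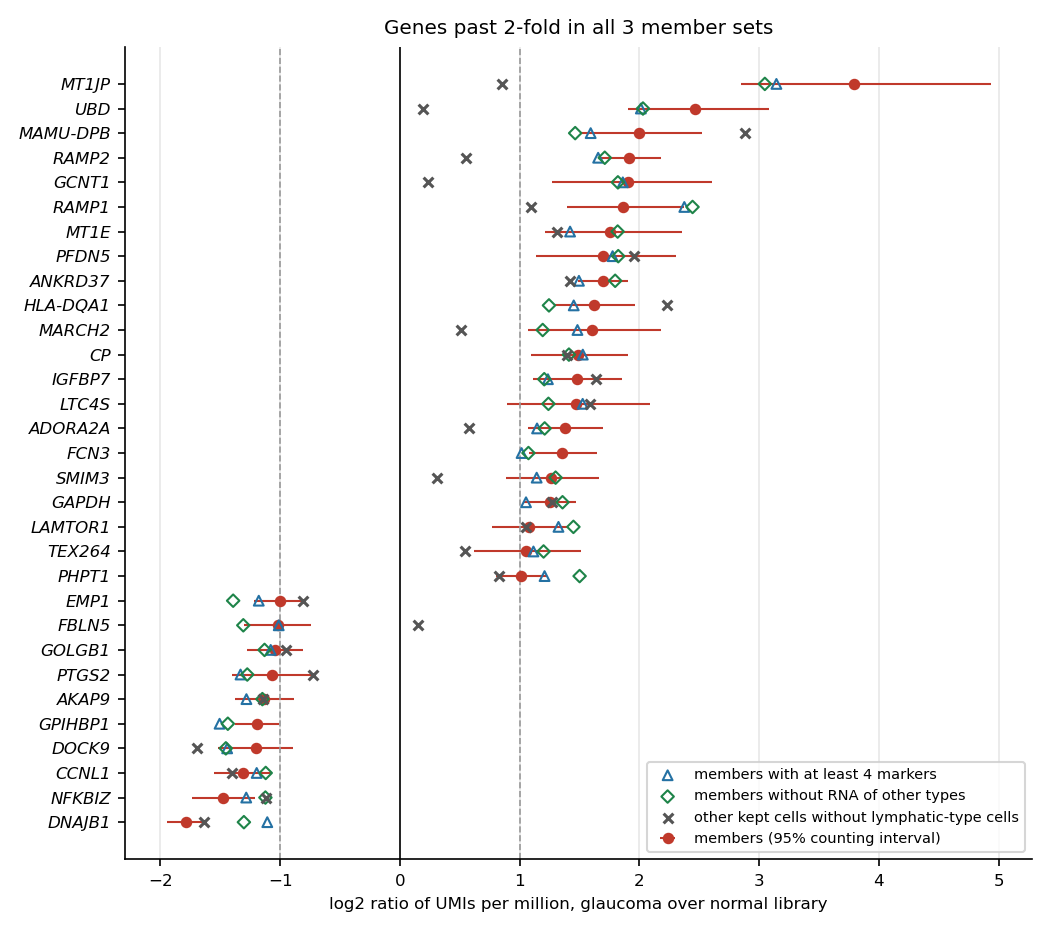
Log2 ratio of CPM, glaucoma over normal library, for the genes called the same way in all 3 member sets (HBB and RPS2 left out); filled circles with 95% counting intervals are all members, triangles members with at least 4 endothelial genes, diamonds members without RNA of other types, crosses other kept cells without lymphatic-type cells (where they held at least 100 UMIs), and dashed lines mark 2-fold. RAMP2 is at 1.91 in members against 0.55 in the other cells, and at 1.83 in lymphatic-type cells, which are not drawn. UBD is at 2.47 against 0.19, and GPIHBP1 at -1.19 in members.

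Gene lists showed mostly small shifts. Counts of calls in a list stand beside 2.10% of 4941 features called higher and 3.70% lower in all members. Of 5 capillary and fatty acid uptake genes compared, GPIHBP1 was called lower, TMEM100, a bone morphogenetic protein target, stood at -0.96 and PRX, periaxin, at -0.75; FABP4 and SLC2A1 were at 0.16 and 0.21, and the median was -0.75. With at least 4 genes 3 of 4 were called lower, with a median of -1.22, and without RNA of other types 2 of 3, with a median of -1.44. Median ratios of all features in these narrower sets were -0.09 and -0.06. Over the other cells without lymphatic-type cells the list's median was -0.66 for 5 genes, against -0.17 over all features there. With lymphatic-type cells included it was 0.00 for 6 genes. TMEM100 was also higher in GJA5-positive than in other members of both libraries, and GJA5-positive cells were a smaller share of the glaucoma members. The part of that share in its ratio was not tested.

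Of 14 arterial genes, 1 was called higher and 2 lower, and the median was 0.05, but -0.57 with the same weight for every cell (-0.12 over all features). With at least 4 genes the median was -0.23 over 14 genes, and without RNA of other types it was -0.31 over 9. DEPP1, a target of FOXO factors, was called higher at 1.16 (0.89 with at least 4 genes and 0.81 with the same weight for every cell), PCSK5 lower at -1.45 and FBLN5 lower at -1.02. PCSK5 and FBLN5 were also among the 15 genes highest in GJA5-positive members, which were a smaller share of the glaucoma members. PCSK5 was at 218 CPM in GJA5-positive glaucoma members against 543 in GJA5-positive normal members, and at 22.8 against 46.2 in the others. FBLN5 stood at -0.42 (-0.93 to 0.09) within GJA5-positive members and at -1.04 (-1.38 to -0.70) within the others. The part of the GJA5-positive share in these calls was not tested. Giving GJA5-positive members the same weight of 7.12% in both libraries gave the 14 arterial genes a median of 0.09. Under that weighting all 105 named genes stayed within their error. Between the thresholds were DLL4 at 0.07, HEY1 at 0.42, GJA4 at -0.27 and JAG1 at -0.33. None of the 11 Notch pathway genes compared was called, and their median was 0.03. NOTCH1, the arterial Notch receptor, was under the minimum with 31 UMIs in glaucoma members and 45 in normal members, or 11.9 against 48.0 CPM (-2.02, -2.73 to -1.33). Of 8 venous genes, CLU, clusterin, was called lower at -1.21, with 29.1% of its normal UMIs in 1 barcode, and it stood at -0.17 with at least 4 genes and at -0.25 without RNA of other types.

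Of 15 vessel tone genes compared, RAMP2 was called higher and PTGS2 lower, and the median was -0.04. NOS3 was at 274 CPM in glaucoma members and 272 in normal members, a log2 ratio of 0.01 (-0.20 to 0.22), and -0.50 with the same weight for every cell. Also between the thresholds were ECE1, the endothelin-converting enzyme, at -0.04, EDNRB, an endothelin receptor, at -0.36, and KLF4, a shear-responsive transcription factor, at -0.14. Genes of angiopoietin and VEGF signalling had a median of -0.27 over 11 genes, with no call in all members. ANGPT2, the destabilising angiopoietin, was at 39.8 CPM in glaucoma and 71.5 in normal (-0.85, -1.30 to -0.38). PTPRB, a phosphatase of the receptor TEK, was at 89.1 and 140 (-0.65, -0.96 to -0.33), NRP1 at 168 and 252, and FLT4 at 47.8 and 79.0. In members with at least 4 genes, 2 of 10 were called lower, ANGPT2 at -1.35 and FLT4 at -1.15, and the median was -0.63. KDR, the main VEGF receptor, was at 0.26, and TIE1 at 0.14. TEK had only 40 UMIs in glaucoma members and 21 in normal members, under the minimum, and KLF2 had 72 and 19. Of 6 tip cell genes none was called, and the median was -0.18. Of 14 BMP and TGF-beta genes, which act on vessel stability, TGFB1 was called higher at 1.02 and ID2 and TGFB2 lower at -1.19 and -1.31, with a median of -0.15. None of these calls held in the narrower sets. With at least 4 genes none of 12 was called, with a median of -0.32, and without RNA of other types none of 11, with a median of -0.11. Further endothelial genes outside the rule had a median of 0.21 over 13 genes, with 1 call, RAMP2. The median changed sign in both narrower sets, to -0.16 over 13 genes with at least 4 genes and -0.14 over 12 without RNA of other types. In the other cells it was 0.01 over 13 genes, and 1.04 with lymphatic-type cells included. Over all features the median was -0.03 in members and -0.17 in the other cells without lymphatic-type cells.

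Junction and barrier genes had a median of 0.17 over 15 genes (-0.16 with the same weight for every cell), and JAM2, a junctional adhesion molecule, was called higher at 126 against 50.2 CPM (1.33, 0.89 to 1.80). OCLN at 0.53, TJP1 at 0.17, ABCG2 at 0.29 and ABCB1 at 0.01 were under 2-fold. With at least 4 genes 1 of 15 genes of this list was called higher, and without RNA of other types none of 14. Caveolar genes, which build the flask-shaped pits of the endothelial membrane, had a median of 0.27 over 10 genes, with no call; CAV1 was at 0.22 and CAV2 at 0.63. None of the 24 actin and cytoskeleton genes was called, and their median was -0.01. Among 15 basement membrane genes, IGFBP7 and COL18A1, the source of endostatin, were called higher at 1.48 and 1.93, and TIMP3, a metalloprotease inhibitor, lower at -1.06. COL4A1 was at 0.51. With at least 4 genes 1 of 14 basement membrane genes was called higher and none lower. Without RNA of other types 2 of 9 were called higher and 1 lower. Of 9 coagulation genes PLPP3 was called lower at -1.35, while PLAT was at 0.44 and F8, clotting factor VIII, at -0.49. With at least 4 genes none of 7 coagulation genes was called, and without RNA of other types 2 of 7 were called lower. THBD had 4 UMIs in glaucoma members and 0 in normal members.

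Of 16 antigen presentation and interferon genes, OAS1 at 1.89 and IFI27 at 1.08 were called higher, and the median was 0.16 in members and 0.50 over 21 genes in the other cells. B2M was at 0.01 and CD74 at 0.22. With at least 4 genes 1 of 16 was called higher, with a median of 0.08, and without RNA of other types none of 11, with a median of 0.10. Of 14 hypoxia and glycolysis genes, ANKRD37 and GAPDH were called higher and the median was 0.22. NDRG1 was at 0.89, DDIT4 at 0.82 and LDHA at 0.42. For this list 2 of 13 were called higher with at least 4 genes, with a median of 0.28. Without RNA of other types 3 of 12 were, with a median of 0.63. Leukocyte adhesion and NF-kB genes had 1 higher call, JAM2, and 4 lower calls of 13. CXCL2, a neutrophil chemokine, was at 19.1 CPM in glaucoma and 228 in normal (-3.58), with 36.4% of its normal UMIs in 1 barcode, and NFKBIZ and SOD2 were called lower at -1.47 and -1.14. SOD2, a mitochondrial superoxide dismutase, stood at -0.26 with at least 4 genes, and members without RNA of other types held too few of its UMIs to compare. CCL2, a monocyte chemokine, was lower at -1.13 in all members but called higher at 1.72 with at least 4 genes, and 1 barcode held 39.0% of its normal UMIs. ICAM1 had 2 UMIs in glaucoma members and 4 in normal members, SELE 10 and 0, VCAM1 stood at -0.06 and SELP at 0.07.

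Immediate early genes, fast-responding transcription factors and their partners, had a list median of -0.92 over 15 genes. Of these, 7 were called lower and none higher. Over all 4941 features compared in members, 3.70% were called lower and 2.10% higher, and the median was -0.03. FOS was at 2172 CPM in glaucoma members and 4455 in normal members (-1.04), and EGR1 at 350 and 920 (-1.40); FOSB, IER3, MYC, ATF3 and NR4A1 were lower at -1.76, -1.72, -1.72, -1.18 and -1.11. The other cells had a median of -0.48 over 21 genes, against -0.17 over all features, and mural cells -0.60 against -0.13. With at least 4 genes the median was -0.63 and none of 12 was called, and without RNA of other types it was -0.83, with 2 of 8 called lower. Heat-shock genes had a median of -0.27 over 11 genes, with DNAJB1 and BAG3 called lower. None of 3 cell cycle genes was called, and their median was 0.32.

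**Figure D5:**
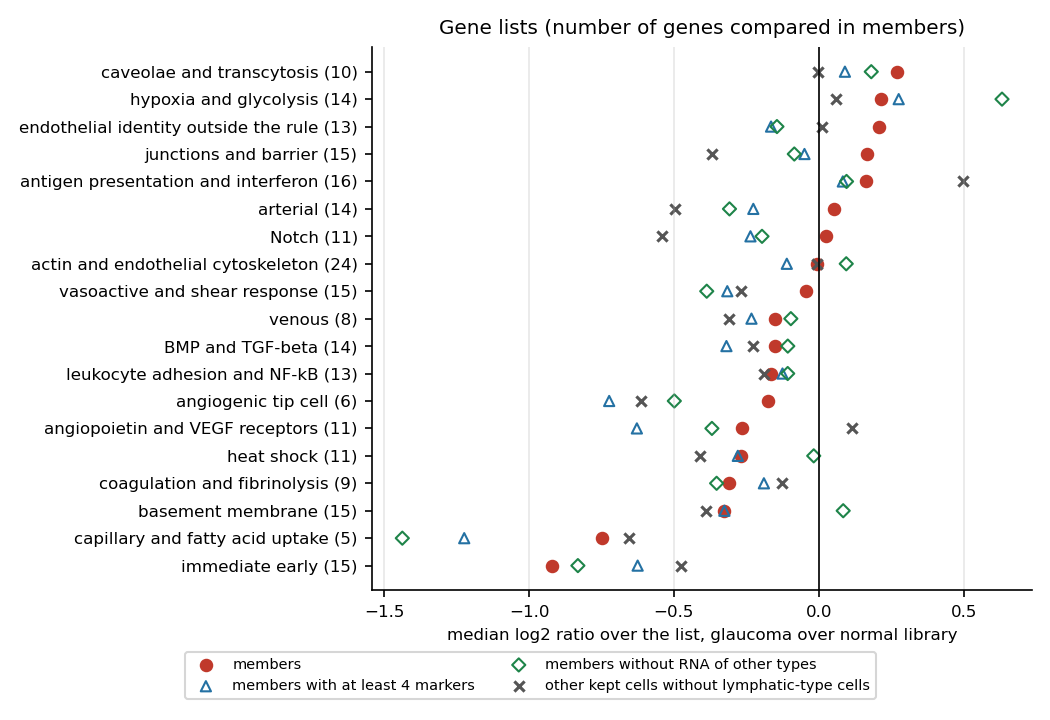
Median log2 ratio of CPM, glaucoma over normal library, for each gene list with at least 5 genes compared in members (number in brackets); filled circles are all members, triangles members with at least 4 endothelial genes, diamonds members without RNA of other types, and crosses other kept cells without lymphatic-type cells. Immediate early genes lie at -0.92 in members, and capillary genes lie at -0.75 in members against -0.66 in the other cells. Endothelial genes outside the rule lie at 0.21 in members and 0.01 in the other cells. They lie at -0.16 in members with at least 4 genes and at -0.14 in those without RNA of other types.

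The rule genes are given as a description. EGFL7 was at 3928 CPM in glaucoma members and 2086 in normal members, a log2 ratio of 0.91 (0.84 to 0.98). VWF had a ratio of 0.38, PECAM1 of 0.15, CDH5 of -0.07, FLT1 of -0.15 and EMCN of -0.32.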

How the data were processed

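The authors deposited raw UMI counts per gene and barcode for 2 libraries. Per the file headers the matrices came from Cell Ranger 6.0.0, while the submitters' processing notes name Cell Ranger 4.0 and Seurat 3.0; the genome build and annotation are not given in the sources used here. Of 24037 features, 15580 carry a symbol in the files and 873 were named from a gene-name table; 7584 stayed unnamed. Counts were summed over the members of each library and divided by the members' total to give CPM, whose precision the depth of 1 library limits. Ratios have exact conditional binomial (Clopper-Pearson) 95% intervals, checked on simulated data. Ratios of sets of cells used a prior of 10 CPM. Named genes were the 20 leading genes with at least 50 UMIs, 15 for GJA5 (at least 20 UMIs), 12 called each way between libraries (top barcode under 20%), and called or extreme genes of 30 lists of which 10 are markers. Members, lists and tests were chosen with earlier results of these data known. Python 3.11.15, numpy 2.4.6, scipy 1.17.1, pandas 2.3.3 and scanpy 1.11.5 (Scrublet, 0.8% doublets per 1000 cells) were used. Doublets were kept in the main values and left out as an alternative.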

Additional observations from a re-analysis of the deposited data

Results flagged for a closer look

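Genes called in opposite directions in members and in the other kept cells were AIF1, CPAMD8 and IFI30, and these differences were not tested. All 3 kept opposite calls with lymphatic-type cells left out of the other cells, where AIF1 stood at 1.46, CPAMD8 at -1.08 and IFI30 at 1.28. AIF1, a gene of macrophages, had a log2 ratio of -1.31, glaucoma over normal, in members and 1.37 in the other kept cells, with 37.1% of its normal member UMIs in 1 barcode. CPAMD8, a protease-inhibitor family gene, had 1.20 in members and -1.07 in the other kept cells. IFI30, a lysosomal thiol reductase of antigen-presenting cells, had -1.53 in members and 1.20 in the other kept cells, and stood at 0.014 in members with at least 4 endothelial genes.

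Barcodes that the cell filter left out, which no comparison used, also held the endothelial markers. The marker rule was met by 57 of 1991 of them (2.86%) in glaucoma and by 45 of 1598 (2.82%) in normal, a log2 ratio of 0.02 (-0.57 to 0.62).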

How the results depend on the processing

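No paired analysis was possible because each group has 1 library. The member share was 0.69 as a log2 ratio, and it was 0.38 with at least 2 markers, 1.01 with at least 1000 genes detected and 1.01 after thinning; the GJA5 share kept its direction, at -1.02 to -1.35. Of the counts of 104 higher and 183 lower, the values were 58 and 52 without RNA of other types, 48 and 32 after thinning, 286 and 813 with no UMI minimum and 34 and 59 with at least 300 UMIs, and 92 lower with at least 4 markers. The 24 and 12 genes called in all 3 member sets became 76 and 151 with no UMI minimum and 10 and 3 with at least 300 UMIs. Directions reversed with at least 4 markers for CCL2 (1.72), DCN (0.50), COL1A2 (0.69), MYOC (0.054), CHI3L1 (0.15) and IFI30 (0.014), without RNA of other types for MYOC (0.32), and with the same weight for every cell for CCL2 (0.33) and TGFB2 (0.18). The cause was not tested. With the same weight for every cell, 54 more of 105 named genes and 10 of 22 list medians moved beyond their error, among them the medians of arterial (-0.57), junction and barrier (-0.16), further endothelial (-0.09) and meshwork genes (0.30), which changed sign, against -0.12 over all features. With Scrublet's doublets left out, 12 of 101 genes and 2 of 22 list medians moved, none changing sign. ACKR1-positive members were too few for a class of their own and were weighted with the other members. Genes under the minimum, such as CLDN5 and TEK, had too few UMIs to compare, and 1 library per group limits every comparison.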

Other observations

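Markers of other cell types were also measured in the members. The T and NK cell markers summed to 37.9 CPM in glaucoma members and 1.07 in normal members, and GZMB, a granule protease of these cells, had 42 UMIs in glaucoma members and 0 in normal members. Of 3 macrophage markers, C1QC, a complement gene, was called higher at 70.0 CPM in glaucoma against 8.54 in normal, a log2 ratio of 3.04 (2.03 to 4.27), and was detected in 2.40% of glaucoma and 0.647% of normal members; AIF1 was called lower and LYZ stood at -0.32. Of 8 mural markers, RGS5, a pericyte gene, was detected in 21.6% of glaucoma and 10.0% of normal members and was called higher at 1.07, while MYH11, a smooth muscle myosin, was called lower at -1.01. Of 6 fibroblast markers 5 were called lower, beside 3.70% of all 4941 features. Their median was -1.08, against -0.06 over 5 with at least 4 endothelial genes. Of 6 meshwork markers, WIF1 and MGARP were called higher at 2.04 and 1.90, and MYOC, CHI3L1 and ANGPTL7 lower at -1.10, -1.33 and -1.58. None of 4 Schwann cell markers was called, with a median of -0.15, and the melanocyte markers summed to 19.5 CPM in glaucoma and 23.5 in normal. Of the erythroid markers HBA stood at 0.75 beside HBB. The epithelial marker KRT19 was called lower at -2.66, and at -1.01 with at least 4 endothelial genes. CRYAB, a small chaperone, was at 689 CPM in glaucoma and 371 in normal (0.89), and with at least 4 endothelial genes it was called higher at 2.70. Of 10 mitochondrially encoded features 2 were called higher, and of 68 ribosomal protein features 1 was called lower. In the other cells without lymphatic-type cells, medians were 1.45 for 8 macrophage, 1.07 for 7 T and NK and 0.74 for 10 meshwork markers. Those of 11 mural and 10 fibroblast markers were -0.39 and -0.53 there, against -0.17 over all features.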
